A study of Homo sapiens with 2 samples.

Results

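TFRC, the gene of the transferrin receptor that carries iron into the cell, was 4.69-fold lower in FPKM in the ATOH8 library than in the vector library, while the ferritin genes, which encode the iron store, stayed within 2-fold. The data are RNA sequencing libraries of A549, an established human lung adenocarcinoma cell line, grown in DMEM with fetal bovine serum. The ATOH8 group was stably transduced with a retrovirus carrying ATOH8, a basic helix-loop-helix transcription factor gene, and the vector group with the empty retroviral vector. Whether either line is a pool or a clone is not stated in the labels. Each group is 1 library, so no value below has an error from replicates, no test was run, and each difference is one between these 2 libraries. The iron genes were chosen by name as FTH1, FTL, NCOA4, TFRC, STEAP3, SLC11A2, SLC40A1, HMOX1, IREB2 and ACO1, which are 10 of the 18786 gene symbols with a value in both libraries. All 10 were listed in both, and all 10 passed a filter on level, a mean FPKM of 1 or more over the libraries, which 12342 symbols passed.

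Cells take up iron mainly by binding transferrin at its receptor, reduce it in the endosome, and move it into the cytosol, where ferritin holds what is not used. Iron regulatory proteins, encoded by ACO1 and IREB2, bind a short hairpin called the iron-responsive element (IRE) when iron is scarce. At an IRE in the 5′ untranslated region, as in the ferritin and ferroportin mRNAs, the binding blocks translation and need not change the mRNA level. At the IREs in the 3′ untranslated region of TFRC it protects the mRNA from decay, so that the TFRC mRNA level itself follows this system.

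These hairpins are shown because they divide the members into those whose mRNA level the system is known to set and those whose translation it sets. They were found in GENCODE 29 transcripts (GRCh38) by searching for the letters CNNNNNCAGTGN, a bulged C, a stem strand and the loop, followed by 5 bases that pair with the 5 before the loop, with G-U pairs allowed. Only the transcript strand was searched. Hairpins with another loop or shape would be missed, so the elements shown for a gene need not be all it has. The sequences run 5′ to 3′ along the transcript, and the 6 bases of the loop are in capitals.
FTH1, 5′ untranslated region, chr11:61967573-61967602, minus strand: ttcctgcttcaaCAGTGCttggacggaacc
FTL, 5′ untranslated region, chr19:48965335-48965364, plus strand: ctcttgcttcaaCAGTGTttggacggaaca
SLC40A1, 5′ untranslated region, chr2:189580660-189580689, minus strand: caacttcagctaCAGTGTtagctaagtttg
TFRC, 3′ untranslated region, chr3:196050978-196051007, minus strand: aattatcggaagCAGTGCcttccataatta
TFRC, 3′ untranslated region, chr3:196050574-196050603, minus strand: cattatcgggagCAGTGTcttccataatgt
TFRC, 3′ untranslated region, chr3:196050509-196050538, minus strand: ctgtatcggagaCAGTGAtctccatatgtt
TFRC, 3′ untranslated region, chr3:196050462-196050491, minus strand: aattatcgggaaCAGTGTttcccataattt
The same pattern occurred in the 5′ untranslated region of 0.183% and in the 3′ untranslated region of 0.671% of 19684 protein-coding genes. The other 6 members held no match of this pattern in an annotated untranslated region, which says only that these letters with this pairing are not there. SLC11A2 is known to have a mRNA form with an IRE of a less regular shape, which this pattern does not describe.

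Levels are FPKM, the authors' fragments per kilobase of transcript, scaled to each library's total. Summed FPKM was 502502 over 20870 genes in the ATOH8 library and 540101 over 20966 genes in the vector library, and with the read depth unknown no counting interval can be set on a value. ATOH8 was at 182 FPKM in the ATOH8 library and 0.786 FPKM in the vector library, as the labels have it. The epithelial keratin gene KRT8 was at 2302 FPKM in the ATOH8 library and 2381 FPKM in the vector library, and KRT19 was at 0.219 FPKM or less in both. KRT7 was at 1470 FPKM in the ATOH8 library and 965 FPKM in the vector library, and KRT18 at 2012 FPKM in the ATOH8 library and 2486 FPKM in the vector library. CDH1, the epithelial cadherin gene, differed more, at 54.1 FPKM in the ATOH8 library and 15.4 FPKM in the vector library. Of 8 marker genes of other cell types, 7 were listed at 0.258 FPKM or less or not listed, and CD68, a macrophage and lysosome gene, was at 15.4 FPKM in the ATOH8 library and 2.14 FPKM in the vector library. Its part in the results below was not tested.

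Folds are log2 of ATOH8 over vector after adding 1 to each FPKM. Their median over the genes whose mean FPKM reached 5 was -0.36, so the folds below are relative to that median gene unless called as deposited, and a fold beyond 1 in either direction counts as 2-fold. By this rule 12.8% of the 12342 genes were 2-fold or more higher and 9.46% were 2-fold or more lower. As deposited, these shares were 6.24% for higher and 19% for lower. Of the 10 iron genes, 0 passed 2-fold upward and 1, TFRC, passed it downward. That share of lower members is near the share over all genes, so the set as a whole is not set apart by it. The members' median was 0.33, against 0.06 over all 12342 genes, and the members' folds ran between -1.79 and 0.96. TFRC and IREB2 lay below the median gene and the other 8 above it. As deposited, 5 of the folds were above 0 and 5 below it, and their median was -0.025.

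**Figure D1:**
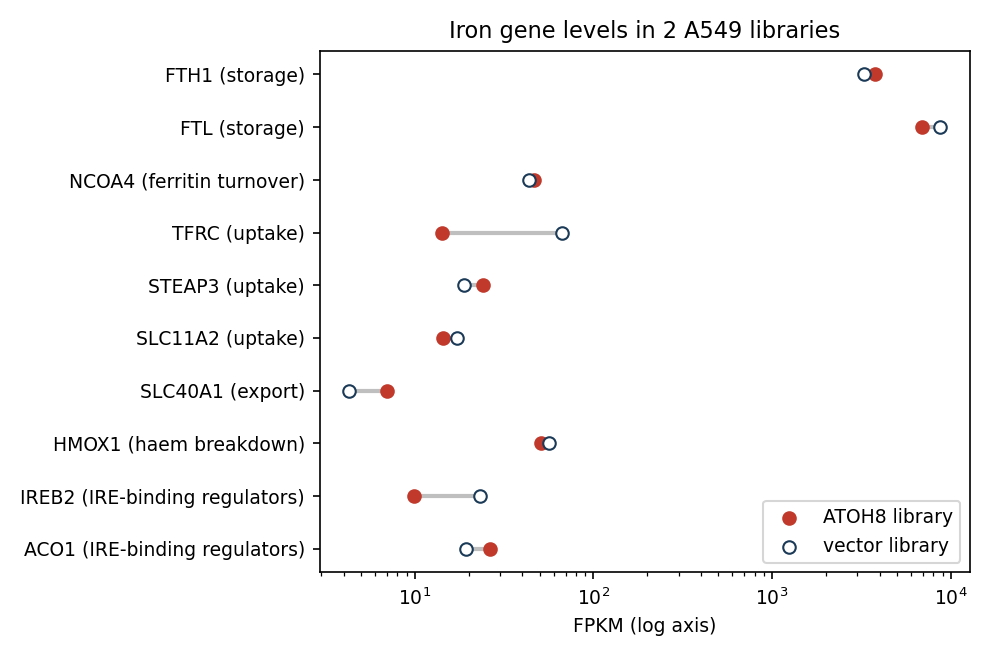
FPKM of the 10 iron genes on a log axis, 1 row per gene with its role, filled points for the ATOH8 library and open points for the vector library. The ferritin genes lie at 3278 FPKM or more in both libraries, the other 8 lie at 66.7 FPKM or less, and the widest gap is that of TFRC.

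Ferritin is a shell of heavy chains, encoded by FTH1, which oxidise iron, and light chains, encoded by FTL, which help to lay it down as mineral. FTL (ENSG00000087086, chr19:48965301-48966878, plus strand) was at 6933 FPKM in the ATOH8 library and 8734 FPKM in the vector library. It was the gene of rank 6 by FPKM in the ATOH8 library, against rank 5 in the vector library. FTH1 (ENSG00000167996, chr11:61959718-61967660, minus strand) was at 3793 FPKM in the ATOH8 library and 3278 FPKM in the vector library, at rank 14 in the ATOH8 library, against rank 13 in the vector library. In FPKM, FTH1 was thus 1.16-fold higher and FTL 1.26-fold lower in the ATOH8 library. Relative to the median gene FTH1 stood at 0.57 and FTL at 0.03.

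The ratio of the chains does not depend on how the libraries are scaled to each other. FTL was 1.83 times FTH1 in the ATOH8 library and 2.66 times FTH1 in the vector library, in FPKM, which is per length. Of all listed FPKM, the chains together took 2.13% in the ATOH8 library, against 2.22% in the vector library. Mitochondrially encoded genes other than MT-CO1, which the ATOH8 file does not list, took 24.2% in the ATOH8 library, against 14.4% in the vector library. With all mitochondrially encoded genes left out, the ferritin share was 2.81% in the ATOH8 library, against 2.66% in the vector library, so the direction of the share turned with that choice. Ferritin genes have many processed pseudogenes, whose copies can draw reads from the parent gene. Rows of FTH1 pseudogenes summed to 6.03 FPKM in the ATOH8 library and 6.30 FPKM in the vector library, which is 0.159% of FTH1 itself in the ATOH8 library, against 0.192% in the vector library. The largest was FTH1P2, at 3.89 FPKM in the ATOH8 library and 4.24 FPKM in the vector library. Those of FTL summed to 0.0964 FPKM in the ATOH8 library and 0.351 FPKM in the vector library.

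NCOA4 encodes the receptor that brings ferritin to the lysosome, where its iron is released. It was at 46.7 FPKM in the ATOH8 library and 43.4 FPKM in the vector library. Relative to the median gene it stood at 0.46. The ratio of NCOA4 to FTH1 was 0.0123 in the ATOH8 library, against 0.0132 in the vector library, nearly the same.

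TFRC (ENSG00000072274, chr3:196027183-196082189, minus strand) was at 14.2 FPKM in the ATOH8 library and 66.7 FPKM in the vector library. Its rank by FPKM was 3919 in the ATOH8 library, against 1087 in the vector library. The fold was -2.15 as deposited and -1.79 relative to the median gene, and 1.00% of the 12342 genes had a lower fold. In bulk RNA, fewer cells with the transcript and less of it per cell cannot be told apart. Among the 2545 genes whose mean FPKM was within 2-fold of that of TFRC, 1.65% had a lower fold. It was the only member in the authors' deposited table of differential expression, where it was marked down with a log2 ratio of -2.23 and a q-value of 2.34e-05. That table marked up 4.33% and marked down 10.2% of the 18812 gene identifiers with a value in both libraries. Its p-values rest on 1 library per group and compare the libraries, and its ratios come from the same FPKM, so it is no second measurement.

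The other uptake genes stayed within 2-fold. STEAP3 encodes the endosomal ferrireductase that reduces iron released from transferrin, and it was at 24.1 FPKM in the ATOH8 library and 18.9 FPKM in the vector library. SLC11A2 encodes DMT1, which carries the reduced iron out of the endosome, and it was at 14.4 FPKM in the ATOH8 library and 17.1 FPKM in the vector library. Relative to the median gene STEAP3 stood at 0.70 and SLC11A2 at 0.12, on either side of 0 as deposited, at 0.34 and -0.24. In the ATOH8 library TFRC was below STEAP3 and level with SLC11A2, and in the vector library it was the highest of these uptake genes. The ratio of TFRC to SLC11A2 was 0.990 in the ATOH8 library, against 3.89 in the vector library, and that of TFRC to STEAP3 was 0.591 in the ATOH8 library, against 3.54 in the vector library.

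SLC40A1 encodes ferroportin, the iron exporter of the cell membrane. It was the lowest member in both libraries, at 7.03 FPKM in the ATOH8 library and 4.30 FPKM in the vector library. Its fold of 0.96 relative to the median gene was the highest of the 10 and lay just inside the 2-fold limit. With a pseudocount of 0.1 in place of 1 the fold was 1.08, past that limit. TFRC and SLC40A1 thus lay at the opposite ends of the members' folds, with the uptake genes STEAP3 and SLC11A2 between them at 0.70 and 0.12. The ratio of TFRC to SLC40A1 was 2.03 in the ATOH8 library, against 15.5 in the vector library. FTH1 exceeded TFRC 266-fold in the ATOH8 library, against 49.1-fold in the vector library.

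HMOX1 encodes haem oxygenase 1, which frees iron from haem and is a well-known target of the NRF2 and BACH1 transcription factors. It was at 50.6 FPKM in the ATOH8 library and 56.5 FPKM in the vector library. Relative to the median gene it stood at 0.20, within 2-fold.

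The genes of the IRE-binding proteins differed from each other. IREB2 encodes IRP2, whose level is set by degradation when iron is ample, and it was at 9.87 FPKM in the ATOH8 library and 23.3 FPKM in the vector library. ACO1 encodes IRP1, which without its RNA target carries an iron-sulfur cluster and works as cytosolic aconitase, and it was at 26.3 FPKM in the ATOH8 library and 19.4 FPKM in the vector library. Their order in FPKM was thus reversed between the libraries, with a ratio of IREB2 to ACO1 of 0.375 in the ATOH8 library, against 1.20 in the vector library. Relative to the median gene IREB2 stood at -0.80 and ACO1 at 0.78, each within 2-fold. As deposited, IREB2 was at -1.16, past the 2-fold limit.

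**Figure D2:**
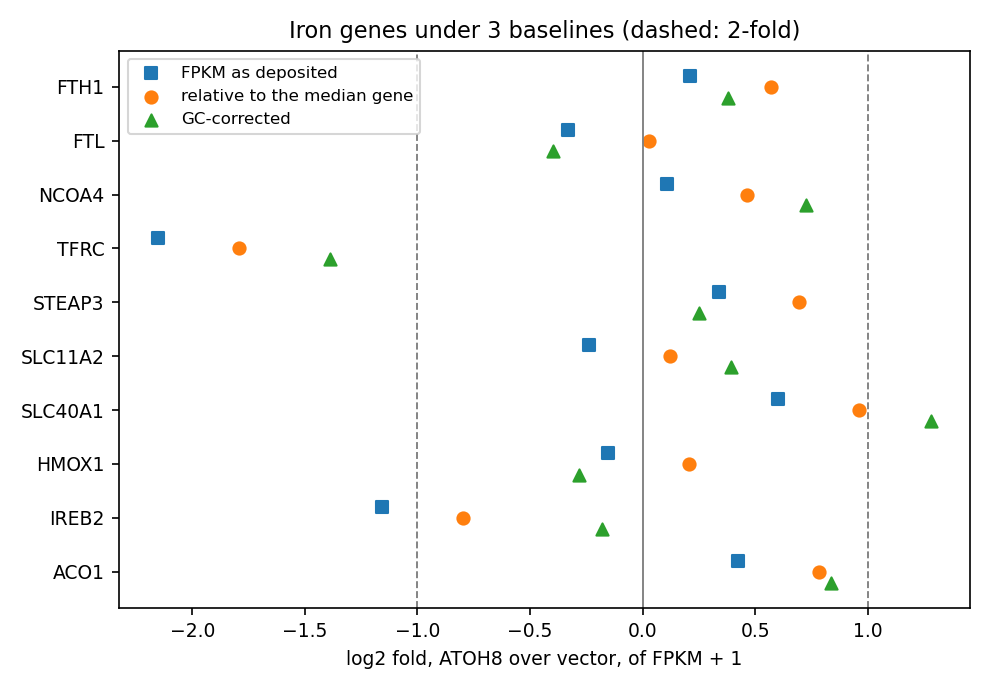
Log2 fold of each iron gene, ATOH8 over vector, as deposited (squares), relative to the median gene (circles) and GC-corrected (triangles), with dashed lines at 2-fold. TFRC is beyond 2-fold lower by all of these, IREB2 only as deposited, and SLC40A1 is beyond 2-fold higher only after the GC correction.

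Folds across all genes moved with base composition, and the iron genes span much of its range. By decile of GC content, the median relative fold was -0.70 in the AT-richest decile and 0.63 in the GC-richest. TFRC has a transcript GC content of 41.5%, and the 1060 genes within 1 percentage point of it had a median of -0.41, with 2.45% of them lower than TFRC. After subtracting a smooth curve of fold on GC content, TFRC stood at -1.39, still beyond 2-fold, and on that scale 5.94% of all genes were 2-fold or more lower and 8.33% were 2-fold or more higher. IREB2 has the lowest GC content of the 10, 38.3%, and the 883 genes near it had a median of -0.65, close to its own -0.80, and 39.5% of them were lower than IREB2. Its corrected value was -0.18. SLC40A1, at 42.4% GC, lay higher than 95.8% of the 1096 genes of like composition and stood at 1.28 after the correction. ACO1 and NCOA4 stood at 0.83 and 0.72 after it, FTH1 at 0.38, SLC11A2 at 0.39 and STEAP3 at 0.25. FTL and HMOX1, which are GC-rich at 56.3% and 58.1%, stood at -0.40 and -0.28, on the other side of the baseline from their uncorrected values.

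**Figure D3:**
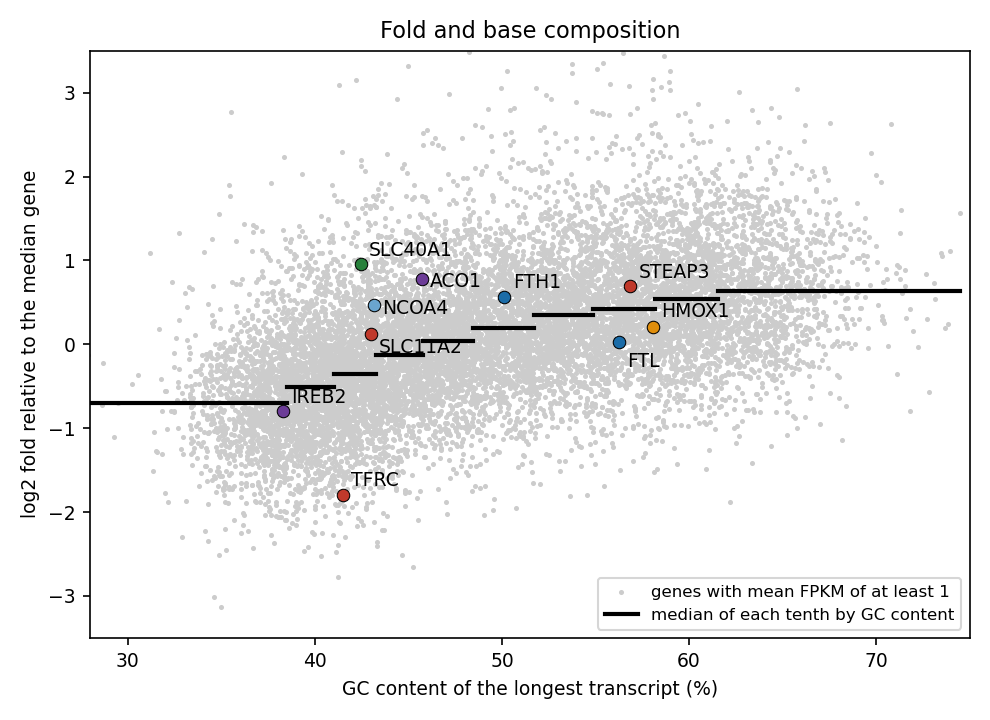
Log2 fold relative to the median gene against transcript GC content in percent, grey points for the genes that passed the level filter (12 lie outside the axis), black bars for the median of each decile by GC content, and coloured points for the iron genes by role. TFRC lies far below the bar for its composition, IREB2 near its bar, and SLC40A1 above its bar.

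Grouped by the IREs printed above, the genes with an element in the 5′ untranslated region, FTH1, FTL and SLC40A1, stood at 0.57, 0.03 and 0.96, FTL changing sign to -0.33 as deposited. TFRC, with elements in the 3′ untranslated region, stood at -1.79. Of 5 other genes whose mRNAs are known to bear an IRE, 3 passed the level filter. EPAS1, which encodes the hypoxia factor HIF-2 alpha, was at 0.09 and the kinase gene CDC42BPA at 0.05. For neither was a hairpin found with the pattern above, so they are placed here on prior knowledge alone. The remaining gene that passed is not reported here, so these values do not stand for the list.

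Among 14 other genes of iron entry, 11 passed the filter, of which 3 were past 2-fold upward and 0 downward, beside 12.8% of all genes upward and 9.46% downward, and their median was 0.72. After the GC correction 6 of them were past 2-fold upward, beside 8.33% of all genes, and the median was 1.01. Of these 6, HFE, SLC22A17 and MELTF lay just past the limit, each at 1.01 after the correction, where HFE was picked out after its values were seen. LCN2 encodes a secreted protein that binds iron-loaded siderophores, and it was at 16.4 FPKM in the ATOH8 library and 0.297 FPKM in the vector library, a fold of 4.11. It passed the level filter through the ATOH8 library alone, and with a vector value below the pseudocount its fold depends on that pseudocount. The log2 ratio in the authors' deposited table, which adds none, was 5.79. SLC22A17, described as a receptor for that protein, was at 9.27 FPKM in the ATOH8 library and 3.23 FPKM in the vector library (1.64). MELTF, melanotransferrin, was at 17.5 FPKM in the ATOH8 library and 6.30 FPKM in the vector library (1.70). The ferrireductase gene STEAP2 stood at 0.75, and at 1.43 after the GC correction, among those 6. The authors' deposited table marked LCN2 and SLC22A17 up, with q-values of 3.87e-08 and 0.00499, and none of the list down.

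Of 9 genes of export and the hepcidin axis, 4 passed the filter. Their median was 0.71, or 0.36 as deposited and 0.39 after the GC correction. Of these, 1 gene was past 2-fold upward and 0 downward, beside 12.8% of all genes upward and 9.46% downward. That gene was CP, which encodes ceruloplasmin, the ferroxidase that works beside ferroportin. It was at 13.0 FPKM in the ATOH8 library and 5.76 FPKM in the vector library, a fold of 1.41, and in the authors' deposited table it was among the genes marked up (q-value 0.00402). BMP6 and ERFE, an inducer and a suppressor of hepcidin, stood at 0.72 and 0.71, and NEO1 at 0.57. After the GC correction BMP6, ERFE and NEO1 stood at 0.34, 0.18 and 0.43, and CP at 1.98.

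Of 9 genes of cytosolic iron handling and of the turnover of TFRC mRNA or IRP2, 8 passed the filter. Of these, 1 was past 2-fold upward and 0 downward, beside 12.8% of all genes upward and 9.46% downward. Their median was 0.26. The median was -0.098 as deposited and -0.15 after the GC correction, so its sign depended on the scaling, and as deposited GLRX3 was past 2-fold downward at -1.16. ZFP36, which encodes tristetraprolin, a protein that promotes mRNA decay and is known to act on TFRC mRNA, was at 53.8 FPKM in the ATOH8 library and 18.6 FPKM in the vector library, a fold of 1.84. ZC3H12A encodes regnase-1, a nuclease with TFRC among its known targets. It stood at 0.58, at 0.22 as deposited and at 0.015 after the GC correction. The iron chaperone gene PCBP2 stood at 0.94 and the glutaredoxin gene GLRX3 at -0.80. Whether any of these bears on the TFRC level was not tested.

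Mitochondrial and haem genes lay close to the median gene. Of 28 genes of mitochondrial iron and iron-sulfur cluster assembly, 27 passed the filter, with 1 past 2-fold upward, 1 downward and a median of -0.08. Over all genes the shares were 12.8% upward and 9.46% downward. SLC25A37, the gene of mitoferrin 1, the iron importer of the inner membrane, was at 33.2 FPKM in the ATOH8 library and 19.1 FPKM in the vector library (1.12), and the assembly factor gene ISCA1 at 10.4 FPKM in the ATOH8 library and 30.6 FPKM in the vector library (-1.11). As deposited, 0 of these 27 were past 2-fold upward and 5 downward, beside 6.24% of all genes upward and 19% downward. The 5 are thus near the share over all genes. After the GC correction 0 were past it upward and 2 downward, beside 8.33% of all genes upward and 5.94% downward. ISCA1 was not among those 2, at -0.65 after the correction. They were BOLA3, at -1.30 after it and -0.99 before, and FDX2, at -1.03 after it and -0.46 before, where FDX2 was picked out after its values were seen. FDXR, ferredoxin reductase, stood at 0.82. All 19 genes of haem synthesis, breakdown and transport passed, with 1 past 2-fold upward, 1 downward and a median of 0.22. That median was -0.14 as deposited and -0.18 after the GC correction, so its sign depended on the scaling. As deposited and after the GC correction 0 of them were past 2-fold upward and 1, ABCB10, downward. The shares over all genes given for the iron-sulfur list apply to these counts as well. BLVRB, a biliverdin reductase, was at 337 FPKM in the ATOH8 library and 196 FPKM in the vector library (1.14), and ABCB10, a mitochondrial transporter, at 2.77 FPKM in the ATOH8 library and 9.24 FPKM in the vector library (-1.08). FLVCR2 stood at 0.81 and SLC48A1, a haem transporter, at 0.66.

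**Figure D4:**
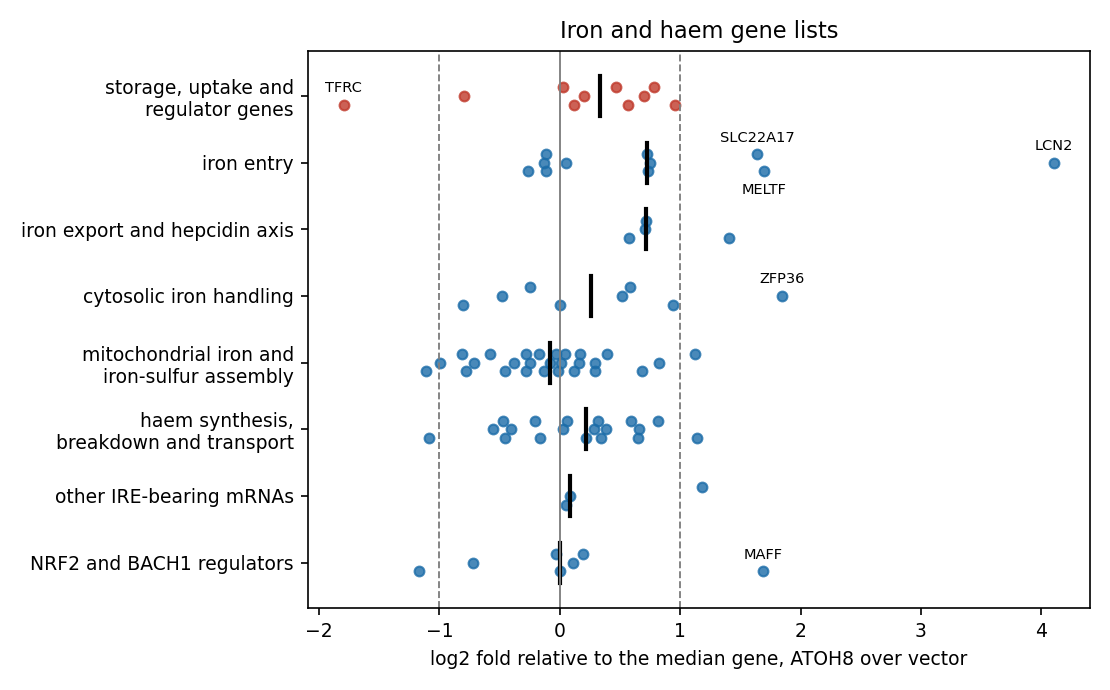
Log2 fold relative to the median gene for the 10 iron genes (top row) and for the members of 7 further lists that passed the level filter, 1 point per gene, with black bars for list medians and dashed lines at 2-fold. TFRC lies alone at the low end and LCN2 at the high end.

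NRF2 and BACH1 act at antioxidant response elements known to drive FTH1, FTL, SLC40A1 and HMOX1. NFE2L2, which encodes NRF2, was at 15.0 FPKM in the ATOH8 library and 45.3 FPKM in the vector library, a fold of -1.17, and the authors' deposited table marked it down with a q-value of 0.000309. KEAP1, the gene of its inhibitor, was at 13.9 FPKM in the ATOH8 library and 30.5 FPKM in the vector library (-0.72, or -1.08 as deposited and -1.27 after the GC correction). BACH1, a repressor at these elements, stood at 0.19, at -0.17 as deposited and at 0.79 after the GC correction. MAFF, the gene of a small MAF partner protein, was at 5.78 FPKM in the ATOH8 library and 1.70 FPKM in the vector library (1.69), and was marked up with a q-value of 0.00726 in the authors' deposited table. NFE2L2 was more than 2-fold lower. FTH1, FTL, SLC40A1 and HMOX1 were each within 2-fold, except SLC40A1 after the GC correction or with the smaller pseudocount. Whether the NFE2L2 level bears on these genes was not tested. Across the 7 lists, 79 of 91 genes passed the filter, of which 9 were past 2-fold upward and 3 downward. Over all genes the shares were 12.8% upward and 9.46% downward. Relative to the median gene, the upward count is near its share and the downward count is below its share, and neither was tested. After the GC correction, 2 iron-sulfur, 1 haem and 2 NRF2 and BACH1 genes were past 2-fold downward, beside 5.94% of all genes. Upward were 6 iron entry genes and 1 each of the export, cytosolic and NRF2 and BACH1 lists, beside 8.33% of all genes. The downward count was thus not below its share on that scale.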

How the data were processed

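The authors deposited FPKM per gene for each of 2 libraries, beside an Ensembl identifier, a symbol and a locus, per the file headers. The submitters' processing notes name CASAVA, HISAT2, Cufflinks 2.2.1 and GRCh38 (hg38), without roles. No source used here gives the annotation release, the strand setting or the depth. The authors' deposited comparison table holds log2 ratios, p-values and q-values of 2747 genes, per the file headers. Its 2 per-library value columns carry names that fit no label and were left aside.

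Tables were joined by identifier and rows sharing a symbol summed. Genes listed in 1 file only were left out, since an unlisted gene need not be at 0. FPKM keeps no count, so no interval was computed. Folds used a pseudocount of 1, which understates low genes, a mean FPKM of at least 1, and centring on the median gene of mean FPKM of at least 5. GC content came from the longest GENCODE 29 transcript (99.8% of tested genes matched), and the correction was a lowess curve (fraction 0.3, statsmodels 0.14.6), left at its own baseline, with python 3.11.15 and pandas 2.3.3. Gene positions are those of GENCODE 29 (GRCh38). The fold and GC steps were tested on simulated data.

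The 10 genes, the other lists and the alternatives were chosen with earlier results of these data known. All members were named. Of each other list, up to 4 genes of largest absolute fold were named. A gene that this rule names is not reported here. The file's locus of FTH1 covers BEST1 (under 0.31 FPKM in both libraries) and that of STEAP3 covers STEAP3-AS1, so reads could be split there.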

Additional observations from a re-analysis of the deposited data

How the results depend on the processing

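With 11 alternatives for each of the 10 iron genes, 95 of 110 folds kept their sign and their side of 2-fold. Of the rest, 15 did not, and 0 turned from beyond 2-fold to the other sign. Some alternatives left each member's fold as it was by construction: no level filter, a mean FPKM of at least 5, and the highest row of a symbol. Summing the ferritin genes with their pseudogenes could move only FTH1 and FTL. Folds fixed in this way are counted among the 95 and show no robustness. TFRC was beyond 2-fold lower under all 11, those that could not move it included, between -2.15 and -1.39. The count of members at least 2-fold higher, 0, was 1 with the GC correction and 1 with a pseudocount of 0.1, SLC40A1 in each case. The count at least 2-fold lower, 1, was 2 without centring and 2 with TPM scaling, IREB2 being added (-1.16 without centring and -1.09 with TPM scaling). The members' median, 0.33, was -0.025 without centring. The fold of FTL ran between -0.40 and 0.05, that of HMOX1 between -0.28 and 0.23 and that of SLC11A2 between -0.24 and 0.39, so none of these has a direction that holds under every scaling. Without mitochondrially encoded genes TFRC was at -1.96 and FTL at -0.09. Over all 12342 genes, 1579 were at least 2-fold higher. The count was 770 without centring, 1026 with the GC correction (12313 genes) and 636 with a pseudocount of 5. At a mean FPKM of at least 5 it was 947, but of only 8249 genes, so it cannot be set beside 1579 as a count. For those at least 2-fold lower, 1168, the counts were 2340 without centring, 2288 with TPM scaling, 1911 with TPM scaling without mitochondrially encoded genes, 732 with the GC correction and 524 with a pseudocount of 5. The cause of these shifts was not tested beyond the construction of each setting. No paired analysis was possible because each group is 1 library, and no library could be left out. The depth behind each FPKM is unknown, which limits most the low members such as SLC40A1.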
